A study of Mus musculus with 20 samples.

Results

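Polyamine genes code for the enzymes, inhibitors and carriers that set how much putrescine, spermidine and spermine a cell holds. The genes asked for were Odc1, Srm, Sms, Amd1, Sat1, Oaz1, Oaz2 and Slc3a2, and the members are the probe sets whose only gene symbol in the annotation of the array is 1 of these. The rule found 5 probe sets for 5 genes among 12488 probe sets: 160084_at (Odc1), 92540_f_at (Srm), 96657_at (Sat1), 101000_at (Oaz2) and 99133_at (Slc3a2). Sms and Oaz1 each have 2 probe sets that the annotation also assigns to a pseudogene, so they are not members, and no probe set carried Amd1. All 5 members lay above 190.8, the median of all values, on all 20 arrays and passed the filter on low values.

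Mice of the C57/B6 strain, 10 to 12 weeks old, gave the whole prostates measured here on 20 Affymetrix arrays, in 4 groups of 5 arrays. The study used 5 mice for each group, so each array was taken as 1 mouse. Sham mice kept their testes, and the time from sham surgery to collection was not stated beyond the group code N3. The castrated groups were collected 3 days (C3) or 14 days (C14) after removal of the testes. The testosterone group (C14+T3) had been castrated for 14 days, then carried a pellet of 15 mg testosterone for 3 days. It therefore shares castration with the other treated groups and differs from sham in both surgery and pellet. Its mice were also collected later after castration than C14, and no castrated group without testosterone matched them in time. Testosterone, the pellet procedure and the added time since castration cannot be told apart in the comparison with C14. The values are MAS5 signals on a linear scale, and each change is a difference of log2(signal + 12.7) from 1 limma fit of all groups, with its standard error (SE) or its 95% interval. Calls use p-values adjusted by Benjamini-Hochberg over the 6913 probe sets tested, at a threshold of 0.05. In whole tissue, fewer cells of a type and less RNA per cell cannot be told apart.

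Polyamines are small cations made from ornithine. Ornithine decarboxylase makes putrescine, and spermidine synthase and spermine synthase then add aminopropyl groups that come from decarboxylated S-adenosylmethionine. Spermidine/spermine acetyltransferase starts their breakdown and export, and antizymes bind ornithine decarboxylase, direct it to the proteasome and block polyamine uptake. The prostate is known for making and secreting very large amounts of spermine, and ornithine decarboxylase in rodent prostate is a long known androgen-responsive enzyme.

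Odc1 and Srm fell with castration and rose above the castrated level 3 days after the pellet, while Sat1 was higher after castration and fell with testosterone. Slc3a2 fell with castration and stayed low. Oaz2 did not pass the test in any of the 5 comparisons. After 3 days of castration 1 of 5 members was called higher and 2 lower, where 9.84% and 4.46% of all probe sets tested were (14.3% together). After 14 days 1 was higher and 3 lower than in sham, against 28.6% and 24.3% of all probe sets (52.9% together). Between 3 and 14 days 0 were higher and 2 lower, against 20.2% and 20.4% (40.5% together). Between the testosterone group and 14 days of castration 2 were higher and 1 lower, against 18.2% and 26.6% (44.8% together). Between the testosterone group and sham 1 was higher and 1 lower, against 23.5% and 29.5% (53.0% together). The median change of the 5 members was -0.27, -0.61, -0.28, -0.13 and -0.14 in these comparisons, beside 0.04, 0.01, -0.01, -0.10 and -0.09 over all probe sets tested. The members include opposing enzymes, so their median sums up no activity of the pathway. Comparisons that share a group also share its arrays.

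**Figure D1:**
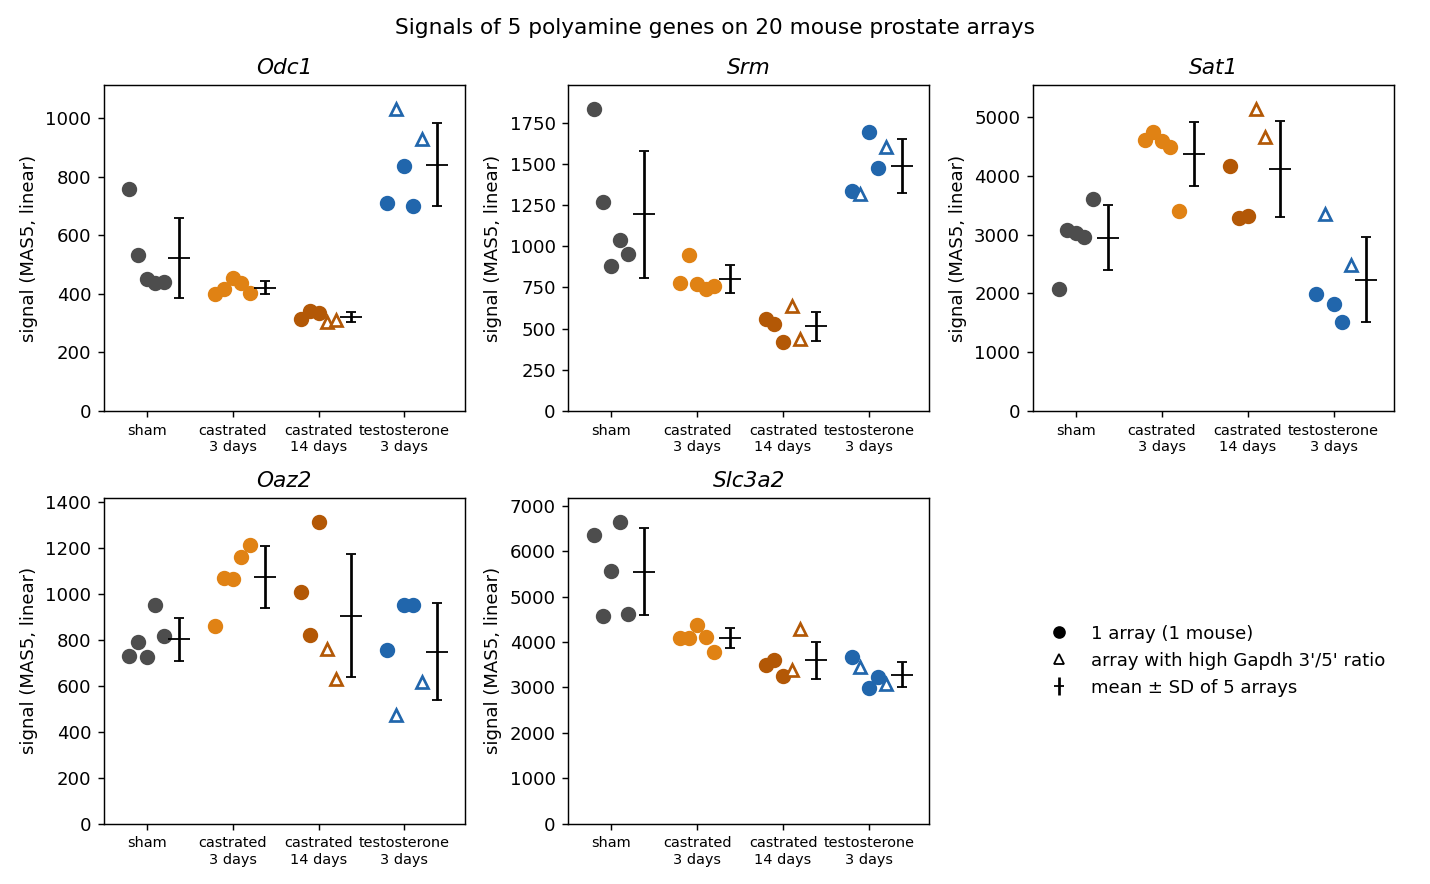
Signal (MAS5, linear, y axis from 0) of Odc1, Srm, Sat1, Oaz2 and Slc3a2 in the 4 groups. Each point is 1 array, open triangles are the 4 arrays with a high Gapdh ratio, and bars are the mean ± SD of 5 arrays. Odc1 and Srm are lowest at 14 days of castration and high in the testosterone group. By its means Sat1 is higher in both castrated groups than in sham and lowest in the testosterone group, and Slc3a2 stays low after the pellet.

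On 4 arrays the Gapdh control probe sets, read at the 3′ and the 5′ end of the transcript, had a log2 ratio of 1.82 to 4.54, against -0.53 to -0.08 on the other 16. Of these, 2 came from the 14-day castrates (replicates 4 and 5) and 2 from the testosterone group (replicates 2 and 5). Sham replicate 1 had the highest Odc1 and Srm and the lowest Sat1 signal of its group. It was singled out by these signals and not by its Gapdh ratio (-0.39). Leaving it out therefore moves the sham means of these genes in a direction known beforehand. Results that rest on these 5 arrays are given with and without them. Pbsn, the secreted prostate protein probasin, measured 16904 ± 1569 (SD, n = 5) in sham, 4903 ± 854 by day 14 and 10013 ± 1268 after the pellet. All 10 luminal epithelial markers on the array, Pbsn among them, were measured. At 14 days 4 of the 10 were called higher and 2 lower than in sham, where 28.6% and 24.3% of all probe sets tested were. Pbsn alone therefore does not describe the list. The basal keratins Krt5, Krt14 and Krt15 did not pass the filter. Centring each array on its median raised the median change of all probe sets by 0.20 in the comparison of testosterone with 14 days of castration and by 0.17 in that with sham. Its shifts in the other comparisons were -0.03, -0.03 and -0.0016.

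Odc1 codes for ornithine decarboxylase, the first and rate-limiting enzyme of polyamine synthesis (chr12:17544808-17551502, GRCm38.p6). Its signals in sham were 758, 533, 450, 437 and 441. After 3 days of castration they were 401, 416, 454, 437 and 403, and after 14 days 315, 340, 336, 303 and 311. In the testosterone group they were 711, 1031, 836, 700 and 931. Replicate 1 stood above the rest of sham, the 3-day arrays lay within or just under the range of the other 4, and the 14-day arrays all lay under both earlier groups and close together (coefficient of variation 5.10%). The 5 testosterone arrays all lay above every castrated array, and 3 of them above every sham array.

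Odc1 fell from 524 ± 137 (SD, n = 5) in sham to 321 ± 16.4 at 14 days, a log2 change of -0.65 ± 0.13 (SE) and a 1.57-fold fall (limma adjusted p = 0.000419). The change from sham to 3 days was -0.27 (95% interval -0.55 to 0.01) and not called (limma adjusted p = 0.189). The change from 3 to 14 days was -0.38 and called (limma adjusted p = 0.0289), but the call ended without 3-day replicate 3 or 4 or 14-day replicate 1, 4 or 5 (changes of -0.37 to -0.35, adjusted p from 0.0524 to 0.0637) and with no filter (-0.38, adjusted p = 0.0518). The 2 steps were not tested against each other. In the testosterone group Odc1 was 2.53-fold above the 14-day level, at 842 ± 142 (log2 change 1.34 ± 0.13 (SE), limma adjusted p = 1.51e-07). Of all probe sets tested, 2.73% rose more in that comparison. The testosterone group also exceeded sham, by 1.61-fold (0.69 ± 0.13 (SE), limma adjusted p = 0.000287). The order of the group means was therefore testosterone, sham, 3 days and 14 days, in which only sham and 3 days, as neighbours, did not differ by the test.

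The arrays of high Gapdh ratio had the higher Odc1 signals of the testosterone group, 931 and 1031 against 700 to 836, and the lower ones at 14 days, 303 and 311 against 315 to 340. Without these 4 arrays the rise was 1.15 (limma adjusted p = 6.32e-05) and the excess over sham 0.53 (adjusted p = 0.0075), while the fall from 3 to 14 days was -0.34 and no longer called (adjusted p = 0.0811). Without sham replicate 1 the change from sham to 3 days was -0.13 (adjusted p = 0.456), the fall to 14 days -0.51 (adjusted p = 0.00058) and the excess of the testosterone group 0.83.

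The bases just before the first annotated start of Odc1 are shown because this gene is the entry point of the pathway and was called with testosterone against both the 14-day castrates and sham. The stretch is chr12:17544623-17544807 on the plus strand (RefSeq, GRCm38.p6), 185 bases 5′ to 3′, with each GGGCGG or its reverse complement (the GC box, bound by Sp1-type factors) in capitals.
Odc1: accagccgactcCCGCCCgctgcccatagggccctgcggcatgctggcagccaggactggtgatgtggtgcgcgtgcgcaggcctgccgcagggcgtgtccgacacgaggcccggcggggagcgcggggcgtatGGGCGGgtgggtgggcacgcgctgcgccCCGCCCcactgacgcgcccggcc
Of these bases 77.8% are G or C. In the 250 bases before the start given in the RefSeq promoter table, Odc1 had 4 GC boxes, of which 3 are in the stretch shown, and 32.7% of 32841 such windows of mouse genes hold at least 1. The E-box CACGTG, the letters recognised by Myc and Max, was not in this window (6.02% of all windows hold it), nor were the androgen response hexamer AGAACA (16.1%) or TATAAA (12.4%), all searched on both strands. A match or its absence describes these letters in this window alone.

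Srm codes for spermidine synthase, which turns putrescine into spermidine (chr4:148591513-148594619, GRCm38.p6). Its probe set has the suffix f, which Affymetrix gave to sets that share probes among related sequences, so related transcripts may add to its signal. Sham arrays read 1832, 1269, 881, 1039 and 950. They read 778, 948, 770, 743 and 760 at 3 days and 556, 526, 416, 635 and 439 at 14 days. The testosterone arrays read 1337, 1317, 1693, 1475 and 1600. The 14-day arrays lay below all others, and the testosterone arrays lay above every castrated array but within the range of sham, whose replicate 1 was the highest of all 20.

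Srm fell 1.44-fold after 3 days (1194 ± 385 to 800 ± 83.9 (SD, n = 5), log2 change -0.52 ± 0.16 (SE), limma adjusted p = 0.0351) and 2.23-fold after 14 days (515 ± 89.0, -1.16 ± 0.16 (SE), limma adjusted p = 8.01e-06). The further fall from day 3 to day 14 was -0.63 (limma adjusted p = 0.00448). In the testosterone group Srm was 2.86-fold above the 14-day level, at 1484 ± 164 (1.52 ± 0.16 (SE), limma adjusted p = 4.06e-07), and 2.20% of all probe sets tested rose more. Against sham the testosterone group differed by 0.36 (95% interval 0.02 to 0.69), which did not pass the test (limma adjusted p = 0.0711). The order of the means was testosterone, sham, 3 days, 14 days, as for Odc1, and here testosterone and sham were the neighbours that did not differ by the test.

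The early fall of Srm lay close to the threshold. Without sham replicate 1 it was -0.36 and not called (limma adjusted p = 0.0834). The call also ended without sham replicate 2 or without 3-day replicate 1, 3, 4 or 5, at adjusted p-values from 0.0662 to 0.0769, although the change itself stayed between -0.52 and -0.49. It ended too with each array centred on its median (0.0702), when the fit held just the 2 groups compared (0.0699) and with no filter (0.0576), with changes of -0.53 to -0.52. Without sham replicate 1 the excess of the testosterone group over sham was 0.52 and passed the test (adjusted p = 0.00302), as it did with each array centred (0.52, adjusted p = 0.0234). With the 4 high-ratio arrays dropped, the fall at 14 days was -1.20 and the rise with testosterone 1.57, both called.

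**Figure D2:**
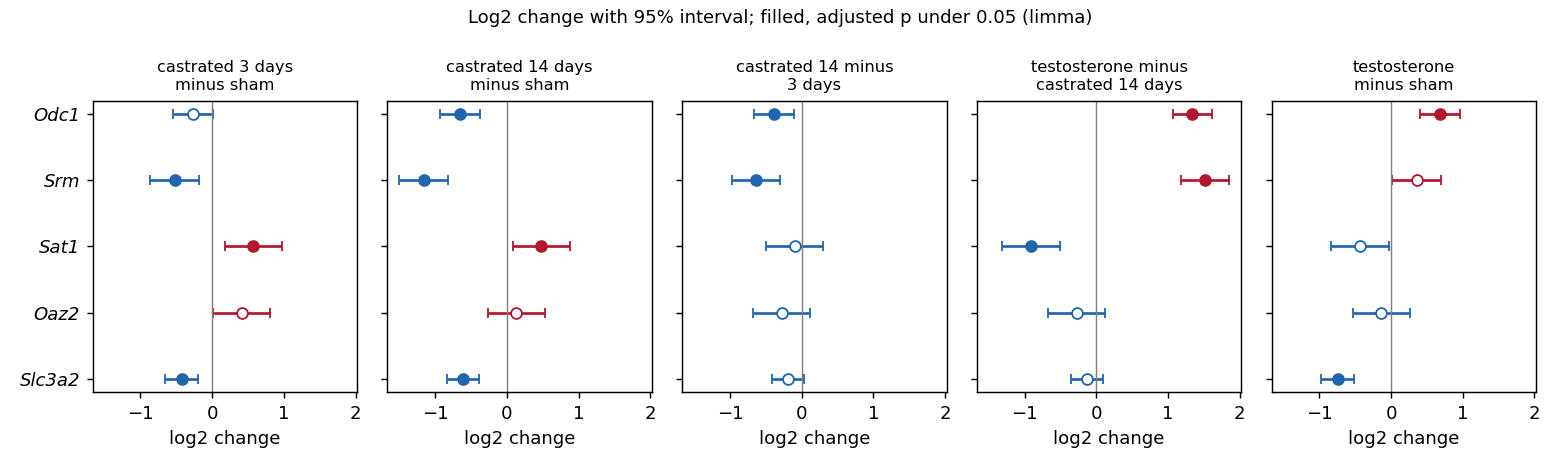
Log2 change (x axis, signal + 12.7) of the 5 genes in the 5 comparisons, with 95% intervals from limma. Red marks a higher and blue a lower level in the group named first, and filled points had an adjusted p under 0.05. The changes of Odc1 (1.34) and Srm (1.52) with testosterone are the largest of the 25 shown, and the fall of Sat1 (-0.91) stands opposite to them.

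Sat1 codes for spermidine/spermine N1-acetyltransferase, the rate-limiting enzyme of polyamine breakdown (chrX:155213126-155216449, GRCm38.p6). Its sham signals were 2079, 3086, 3025, 2958 and 3613. At 3 days of castration they were 4606, 4744, 4589, 4494 and 3403, and at 14 days 4177, 3287, 3315, 5137 and 4669. In the testosterone group they were 1996, 3354, 1828, 1508 and 2489. At 3 days 4 of 5 arrays lay above every sham array, and in the testosterone group 4 of 5 lay below every 14-day array.

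Sat1 was 1.49-fold higher after 3 days than in sham (2952 ± 553 and 4367 ± 546 (SD, n = 5), log2 change 0.58 ± 0.19 (SE), limma adjusted p = 0.0493) and 1.39-fold higher after 14 days (4117 ± 819, 0.48 ± 0.19 (SE), limma adjusted p = 0.0419). Day 3 and day 14 did not differ by the test (-0.10, 95% interval -0.50 to 0.30). Sat1 was 1.88-fold lower in the testosterone group than at 14 days, at 2235 ± 719 (-0.91 ± 0.19 (SE), limma adjusted p = 0.00066), a fall exceeded by 7.46% of all probe sets tested. The testosterone group differed from sham by -0.43 (95% interval -0.83 to -0.03) without passing the test (limma adjusted p = 0.0629). In the order of the means, 3 days, 14 days, sham and testosterone, only 14 days and sham were neighbours that differed by the test.

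The 2 rises of Sat1 over sham lay close to the threshold, and its fall with testosterone did not. The call at 3 days ended in 17 of 31 alternative settings, with adjusted p-values up to 0.129, and the value without sham replicate 1 was 0.45. The call at 14 days ended in 11 of 31, and without sham replicate 1 the value was 0.36 (limma adjusted p = 0.123). With the 4 high-ratio arrays dropped it was 0.30 (adjusted p = 0.144), while the rise at 3 days (0.58, adjusted p = 0.00986) and the fall with testosterone (-1.01, adjusted p = 0.000459) were called. The testosterone group then differed from sham by -0.72 and passed the test (limma adjusted p = 0.00221). With sham replicate 1 also left out, the rise at 14 days was 0.18 (adjusted p = 0.303). In all 31 settings the fall from 14 days of castration to testosterone was called, with values from -1.09 to -0.71.

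In each of the affected groups the arrays of high Gapdh ratio had the higher Sat1 signals, 4669 and 5137 against 3287 to 4177 at 14 days of castration and 2489 and 3354 against 1508 to 1996 with testosterone. For Oaz2 they had the lower ones, 629 and 760 against 821 to 1315 and 472 and 617 against 756 to 954. The part of RNA quality in the signals of either gene was not tested.

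**Figure D3:**
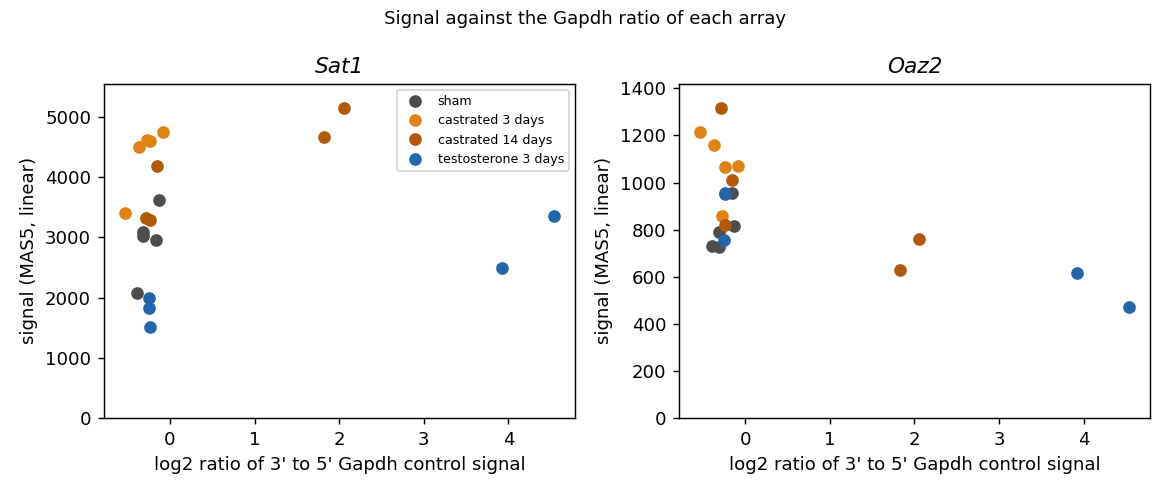
Signal (MAS5, linear) of Sat1 and Oaz2 on each of 20 arrays against the log2 ratio of the 3′ to the 5′ Gapdh control signal, coloured by group. The 4 arrays to the right of 1.82 hold the higher Sat1 and the lower Oaz2 signals of their groups.

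The 250 bases before the start of Sat1 are shown as the counterpart of those of Odc1, since both genes were called with testosterone in opposite directions. They are chrX:155216450-155216699, minus strand (RefSeq, GRCm38.p6), 5′ to 3′, with the androgen response hexamer, here as its reverse complement, and the GC boxes in capitals.
Sat1: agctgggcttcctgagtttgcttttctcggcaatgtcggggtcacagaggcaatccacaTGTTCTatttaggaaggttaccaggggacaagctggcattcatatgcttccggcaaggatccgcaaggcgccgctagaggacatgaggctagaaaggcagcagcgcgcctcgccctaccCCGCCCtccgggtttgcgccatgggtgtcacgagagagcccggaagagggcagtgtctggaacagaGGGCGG
The window is 59.6% G or C and holds 1 hexamer, from base 191 to base 186 before the start, and 2 GC boxes. The full palindromic androgen response element, which joins that hexamer to its reverse complement over a gap of 3 bases, occurs in 3 of the 32841 windows and in none of the windows of Odc1, Sat1, Oaz2 and Slc3a2, the 4 members matched by symbol in the RefSeq table. Oaz2 also held 1 hexamer and Slc3a2 none. Slc3a2 is annotated with a start further upstream, so its window lies inside the gene.

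Oaz2 codes for antizyme 2, an inhibitor of ornithine decarboxylase and of polyamine uptake whose translation needs a frameshift that polyamines promote (chr9:65676548-65690300, GRCm38.p6). Its signals were 730, 790, 726, 954 and 816 in sham and 859, 1072, 1067, 1160 and 1213 after 3 days of castration. At 14 days they were 1009, 821, 1315, 760 and 629, and with testosterone 756, 472, 954, 951 and 617. After 3 days 4 of 5 arrays lay above every sham array, while the 14-day and testosterone arrays were widely spread (coefficients of variation 29.3% and 28.1%, against 11.5% in sham).

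The largest difference of Oaz2 was that between 3 days and sham (803 ± 92.7 and 1074 ± 135 (SD, n = 5), log2 change 0.41 ± 0.19 (SE)), which did not pass the test (limma adjusted p = 0.166). It did when the fit held just these 2 groups (adjusted p = 0.0321) and when the 4 arrays of high Gapdh ratio were dropped (0.0362), none of which belongs to these groups but which enter the shared estimate of the spread. The 14-day group differed from sham by 0.13 (95% interval -0.27 to 0.53), and by 0.36 with the high-ratio arrays dropped (adjusted p = 0.0577). Testosterone differed from 14 days of castration by -0.27 (95% interval -0.67 to 0.13) and from sham by -0.14 (-0.54 to 0.26). Each of these intervals includes 0 and also a change as large as that called for Odc1 from 3 to 14 days, so they do not show that Oaz2 stayed level.

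Slc3a2 codes for the heavy chain of CD98, which carries several amino acid exchangers to the cell surface and has been linked to polyamine export in exchange for arginine (chr19:8706882-8723369, GRCm38.p6). Sham arrays read 6354, 4563, 5572, 6644 and 4612. They read 4098, 4098, 4380, 4106 and 3776 at 3 days and 3487, 3594, 3241, 3381 and 4291 at 14 days. With testosterone they read 3677, 3443, 2997, 3225 and 3080. Every sham array lay above every array of the other 3 groups.

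Slc3a2 fell 1.34-fold after 3 days (5549 ± 961 to 4091 ± 214 (SD, n = 5), log2 change -0.42 ± 0.11 (SE), limma adjusted p = 0.0131) and 1.53-fold after 14 days (3599 ± 408, -0.61 ± 0.11 (SE), limma adjusted p = 0.000117). With testosterone it measured 3284 ± 277, which was 1.67-fold below sham (-0.74 ± 0.11 (SE), limma adjusted p = 1.9e-05). The testosterone group differed from 14 days of castration by -0.13 (95% interval -0.36 to 0.10, limma adjusted p = 0.356), so a rise of the size seen for Odc1 or Srm lay outside the interval. With each array centred the difference was 0.07 and with quantile normalization -0.28, the latter called (adjusted p = 0.0294), so its direction is not settled. The fall at 3 days was not called with each array centred, though its size was alike (-0.42, adjusted p = 0.057), and the falls at 14 days and with testosterone against sham were called in all 31 settings. In the order of the means, sham, 3 days, 14 days and testosterone, only sham and 3 days were neighbours that differed by the test.

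Counted by arrays, 1 of 5 members (Slc3a2) had no overlap between 3 days and sham, where 13.3% of all probe sets tested had none. The counts were 3 of 5 for 14 days against sham (35.0% of all), 2 of 5 for 14 against 3 days (32.4%), 2 of 5 for testosterone against 14 days (30.7%) and 1 of 5 for testosterone against sham (31.4%). The 2 members apart with testosterone were Odc1 and Srm.

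After each group's mean was removed, Odc1 and Srm correlated at r = 0.56 over 20 arrays and at 0.08 without sham replicate 1, and at 0.44 over the 15 arrays left without that array and those of high Gapdh ratio. Sat1 and Oaz2 correlated at -0.65 over 20 arrays, at -0.77 without sham replicate 1 and at -0.36 over the 15. Odc1 and Sat1 correlated at -0.02, 0.47 and 0.04 over the same sets of arrays. Arrays share scaling and RNA quality in these values, which are a description.

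Over all 20 arrays the genes whose log2 signals followed Odc1 most closely, of 5371 compared, were Sec13 (r = 0.96), a coat protein of transport vesicles, Ddost (0.96), a subunit of the oligosaccharyltransferase, and Kdelr3 (0.95), a receptor that returns proteins to the endoplasmic reticulum. Kdelr3 measured 713 in sham, 452 and 287 after 3 and 14 days of castration and 1161 with testosterone, as group means. For Srm they were Slc35b1 (0.96), a transporter of the endoplasmic reticulum membrane, Nudt5 (0.95), a hydrolase of ADP-sugars, and Hsp90b1 (0.95), a chaperone of the endoplasmic reticulum. For Sat1 they were Zkscan1 (0.95), Hs1bp3 (0.90) and Agap1 (0.90). For Slc3a2 they were Atf4 (0.91), a transcription factor of the amino acid stress response, Nefh (0.89), a neurofilament protein, and Slc1a4 (0.88), a carrier of neutral amino acids. Group differences make up much of each r.

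Around the members, 76 genes of related steps were listed, of which 51 had a probe set of their own and 30 passed the filter. After 3 days of castration 4 of the 30 were called higher and 4 lower, and after 14 days 4 and 13, relative to sham. From 3 to 14 days 3 were higher and 10 lower, and testosterone against 14 days gave 9 higher and 6 lower. Testosterone against sham gave 4 and 9. The share of the 30 called was 26.7% at 3 days and 56.7% at 14 days against sham, beside 14.3% and 52.9% of all probe sets. It was 43.3% from 3 to 14 days (40.5% of all), 50% for testosterone against 14 days (44.8%) and 43.3% for testosterone against sham (53.0%).

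Of 6 listed light chains that pair with Slc3a2, 2 were tested. Both were called lower after 14 days than in sham, where 24.3% of all probe sets tested were. Slc7a5, the exchanger for large neutral amino acids, went from 3950 ± 764 (SD, n = 5) in sham to 2277 ± 98.9 at 3 days and 866 ± 75.6 at 14 days (log2 change -2.16, limma adjusted p = 2.81e-10). With testosterone Slc7a5 measured 1773 ± 357, above 14 days (limma adjusted p = 6.01e-06), a level that still differed from sham by -1.15 on the log2 scale (adjusted p = 1.26e-06). Slc7a8, a second exchanger of this kind, fell from 557 ± 96.1 to 117 ± 27.1 (-2.14), and its difference with testosterone of 0.50 was not called (limma adjusted p = 0.0649).

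Of 8 tested genes of ornithine and arginine supply, 2 were higher and 4 lower after 14 days than in sham, where 28.6% and 24.3% of all probe sets were. Arg2, the mitochondrial arginase that makes ornithine, fell from 1358 ± 236 (SD, n = 5) to 701 ± 122 (log2 change -0.94, limma adjusted p = 2.58e-06) and rose with testosterone to 1364 ± 68.7 (0.96). Its difference from sham was then 0.02. Aldh18a1, which makes the precursor of proline and of new ornithine from glutamate, fell from 276 ± 91.2 to 81.6 ± 16.7 (-1.58, limma adjusted p = 1.32e-07) and rose with testosterone to 150 ± 17.8, still below sham. Its lowest sham array read 204.9, and its highest arrays at 3 days, at 14 days and with testosterone read 175.6, 104 and 180.1. Aldh18a1 therefore passed the filter on low values through its sham arrays alone. Its place among the 4 lower depended on that high sham level, and its other groups lay below the filter. Slc25a15, which carries ornithine into mitochondria, fell by 0.27 at 14 days and rose by 0.40 with testosterone. Gatm, which turns arginine and glycine into ornithine and the precursor of creatine, went the other way, from 111 ± 22.7 in sham to 466 ± 76.0 at 14 days (1.95), and fell with testosterone (-0.59). Ddah2, which breaks down methylated arginines, also rose, from 1080 ± 149 to 2228 ± 351 at 14 days (1.03, limma adjusted p = 1.78e-06), and fell with testosterone to 1249 ± 186 (-0.83). Oat, ornithine aminotransferase, was not called in any comparison.

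Of 8 tested genes of the methionine cycle and salvage, which supply the aminopropyl donor and recycle what is left of it, 0 were higher and 3 lower after 14 days than in sham, against 28.6% and 24.3% of all probe sets. Gnmt, which consumes S-adenosylmethionine by methylating glycine, fell from 773 ± 117 (SD, n = 5) to 123 ± 35.3 (log2 change -2.56, limma adjusted p = 1.68e-10) and rose with testosterone to 618 ± 80.8 (2.24). Ahcy, which clears S-adenosylhomocysteine, did not differ from sham after castration and rose with testosterone from 1087 ± 242 to 2733 ± 413 (1.34, limma adjusted p = 2.94e-06), above sham by 1.26. Enoph1, an enzyme of methionine salvage, was lower at 3 days than in sham (159 ± 18.4 and 248 ± 59.6, -0.58, limma adjusted p = 0.00895). Apip, another enzyme of that route, rose with testosterone by 0.31, while Mat2b, the regulatory subunit of methionine adenosyltransferase, fell (-0.33).

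Among the polyamine carriers and antizyme partners, 3 genes were tested, Azin1, Atp13a2 and Atp13a3. Azin1, the antizyme inhibitor that frees ornithine decarboxylase, was not called in any comparison and measured 2567 ± 605 (SD, n = 5) in sham, 2131 ± 231 at 14 days and 2707 ± 572 with testosterone. Atp13a2, a lysosomal polyamine exporter, fell from 1187 ± 62.3 to 467 ± 234 at 14 days (log2 change -1.46, limma adjusted p = 0.00182) and was not called between testosterone and 14 days. Atp13a3 was lower at 14 days than in sham (-0.34, limma adjusted p = 0.0445) and was not called in the other comparisons. A separate list of spermine-binding and transglutaminase secretions had 2 tested genes. Of these, 1 was lower at 14 days than in sham (24.3% of all probe sets) and 1 higher with testosterone than at 14 days (18.2%). On that list Sbp, the secreted spermine-binding protein, had group means of 14824, 12925, 3931 and 13822 in the order sham, 3 days, 14 days and testosterone. Dohh, which completes the spermidine-derived amino acid hypusine, was the tested gene of its list and was not called in any comparison. Of 6 tested genes of the Myc family, Myc itself was not called in any comparison (262 ± 14.6 in sham, 260 ± 7.95 at 14 days and 210 ± 69.3 with testosterone). Mnt, a Max partner that opposes Myc, was higher at 14 days (1.11) and fell with testosterone (-0.98). Mxd4, another partner of Max, fell from 1940 ± 266 to 845 ± 105 at 14 days (-1.19, limma adjusted p = 6.18e-07) and rose with testosterone (0.44). Against sham, Mycl was higher at 3 days (0.74) and with testosterone (0.82), and Mxi1 was lower with testosterone (-0.83).

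**Figure D4:**
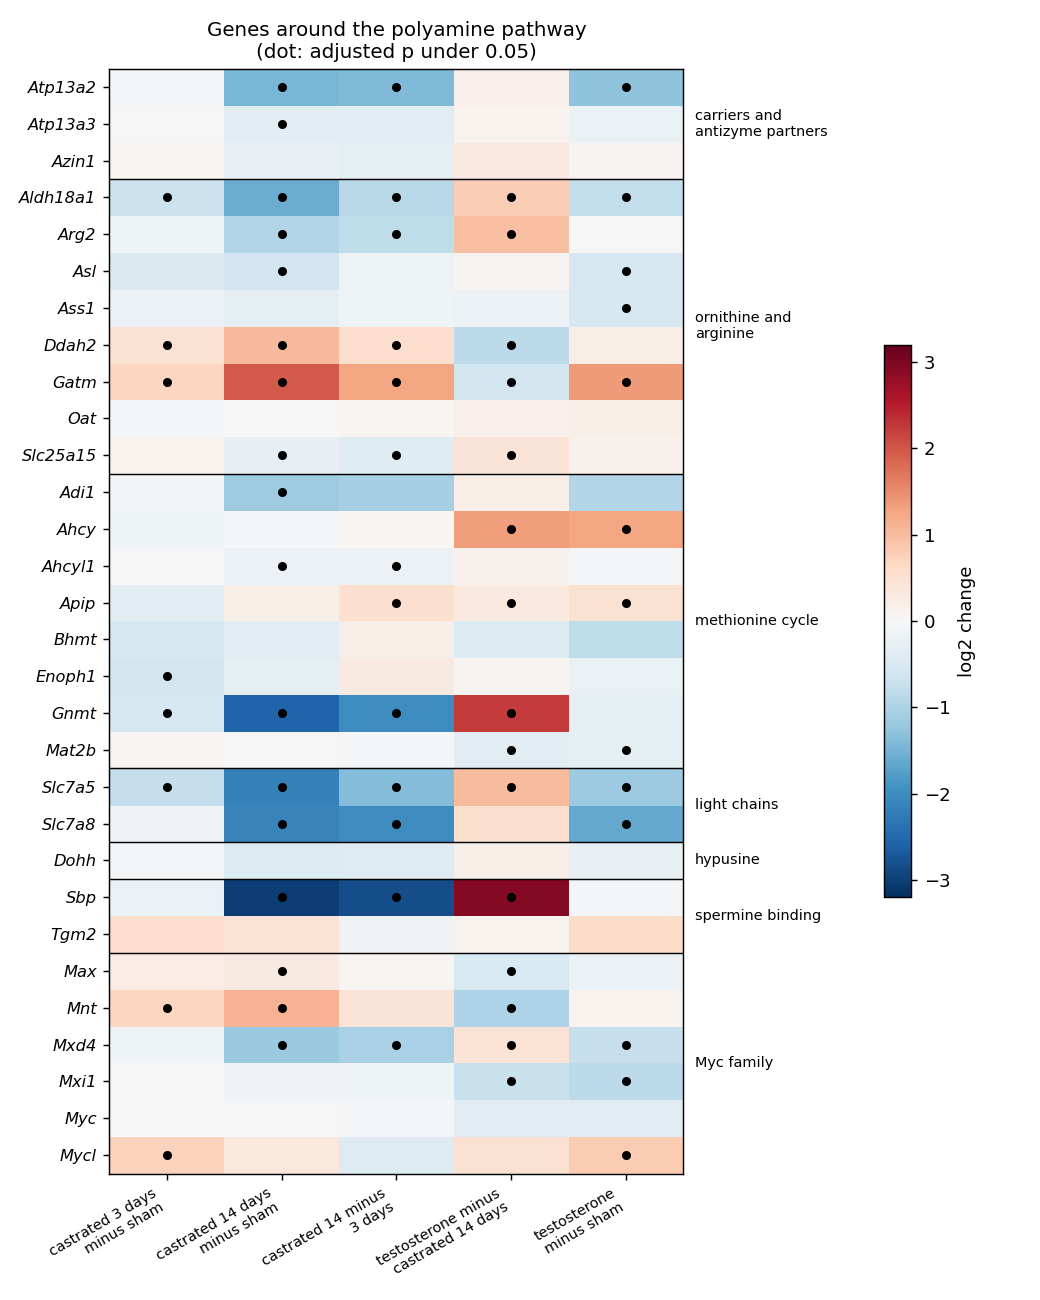
Log2 change (colour, signal + 12.7) of the 30 tested genes of related steps in the 5 comparisons, grouped by list, with a dot where the adjusted p was under 0.05. Slc7a5, Slc7a8, Gnmt and Sbp are low at 14 days, and Ahcy is higher with testosterone than at 14 days of castration and than in sham.

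Markers of several other cells and states moved with these comparisons. Of all probe sets tested, 9.84% were called higher and 4.46% lower at 3 days than in sham. At 14 days 28.6% were higher and 24.3% lower than in sham, and 20.2% and 20.4% than at 3 days. With testosterone 18.2% were higher and 26.6% lower than at 14 days, and 23.5% and 29.5% than in sham. All 15 tested genes of cycling cells were higher with testosterone than at 14 days of castration and than in sham, and the summed signal of the 16 on the array was 2790 to 3617 in sham, 3469 to 4160 at 14 days and 18579 to 22164 with testosterone. The highest sham sum was that of replicate 1. Of 9 tested macrophage and myeloid genes 8 were higher at 3 days and 9 at 14 days than in sham, and 9 fell with testosterone. Their summed signal over 13 genes was 2542 to 3212 in sham, 6111 to 7183 at 3 days, 11979 to 20249 at 14 days and 5078 to 7340 with testosterone. Of 7 tested smooth muscle genes 4 were lower and 1 higher at 14 days than in sham, and 5 were higher with testosterone than at 14 days, with summed signals of 25900 to 31656 in sham, 19570 to 27686 at 3 days, 16451 to 21681 at 14 days and 37067 to 40441 with testosterone. Of 8 tested fibroblast genes 6 were higher than in sham at 3 and at 14 days, and the sum of the 9 on the array was 14228 to 15708 in sham, 19404 to 24264 at 3 days, 22082 to 28503 at 14 days and 18977 to 24829 with testosterone. Of 10 tested luminal genes 3 were higher and 0 lower at 3 days than in sham, and 4 higher and 2 lower at 14 days. With testosterone 1 was higher and 4 were lower than at 14 days. The summed signal of 10 luminal markers was 51529 to 64246 in sham, 60815 to 69094 at 3 days, 48265 to 70197 at 14 days and 49761 to 58366 with testosterone. All 4 tested seminal vesicle secretion genes were lower at 14 days than in sham (median log2 change -2.13) and 3 were higher with testosterone than at 14 days (median of the 4 1.81), with sums of 49365 to 61971, 41766 to 58538, 3169 to 32149 and 40468 to 52168 in the order sham, 3 days, 14 days and testosterone. All 4 tested nerve genes were higher at 14 days than in sham (median 2.23) and lower with testosterone than at 14 days, the sums of the 6 on the array being 420 to 1108, 567 to 1543, 2133 to 2715 and 463 to 1126. Of 5 tested endothelial genes 4 were higher at 14 days than in sham and 3 fell with testosterone, with sums over 9 genes of 1723 to 2556, 2296 to 3134, 3483 to 4066 and 2206 to 2801. Of 4 tested adipocyte genes 2 were higher at 14 days and 3 fell with testosterone, with sums over 5 genes of 908 to 2003, 1321 to 2561, 2614 to 4204 and 1067 to 1639. Of 9 tested skeletal muscle genes 5 were higher at 14 than at 3 days, with sums over 10 genes of 4045 to 18907, 2164 to 4985, 3029 to 26068 and 11913 to 27948. Of 4 tested lymphocyte genes 1 was higher and 1 lower at 14 days than in sham, and of 2 tested basal genes 1 was higher. No gene of these lists was at 0 on any array. The part of these cells and states in the changes of Odc1, Srm, Sat1 and Slc3a2 was not tested.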

How the data were processed

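The deposited intensities are linear signals, 1 for each probe set and each of 20 arrays, which the authors computed with MAS5 version 5.0, per the submitters' processing notes. No source used here gives the scanner or scaling settings. The values were used as log2(signal + 12.7), the pseudocount being their 10th percentile, without further normalization. The 66 Affymetrix controls were left out, and probe sets above 190.8 on at least 5 of 20 arrays were tested, 6913 of 12422 (55.7%). Symbols came from the GEO platform annotation, in which 10833 probe sets had 1 symbol, 396 several and 1193 none. RefSeq identifiers changed none.

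The 4 groups were fitted together with limma 3.58.1 (R 4.3.3), checked on simulated data, with two-sided tests. Groups came from the sample labels, which name no batch and no pairs, and replicates were numbered in order of accession. The codes in the sample titles run in sequence with the groups, so a batch that followed the groups could not be told apart from them. The number of arrays limits the precision. Each gene had 1 probe set. Of each related list, the gene with the largest called change in each direction in each comparison is named. Azin1, Atp13a3, Oat, Dohh, Myc and Slc25a15 fall outside that rule and were chosen after their values were seen, as was naming Kdelr3's levels. Members and lists were chosen with earlier results of these data known. Alternatives were other pseudocounts, filters, scalings, array weights, priors and samples, and leaving out each array.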

Additional observations from a re-analysis of the deposited data

Results flagged for a closer look

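In the group castrated for 3 days, replicate 2 had a Srm signal of 948, apart from the other 4 arrays, the nearest of which read 778. In the same group, replicate 5 had a Sat1 signal of 3403, below the other 4, the nearest of which read 4494. These were 2 of the 20 gene and group combinations examined for a single distant array, and chance gives about 1 in 20. Without 3-day replicate 2 the early fall of Srm was -0.59 (limma adjusted p = 0.0305), and without 3-day replicate 5 the early rise of Sat1 was 0.66 (limma adjusted p = 0.039), both called.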

How the results depend on the processing

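Of 775 alternative values for the 25 changes of single genes, 715 kept their direction where called and their side of the threshold, 46 calls ended, 14 were gained and 0 called values reversed. The calls of Odc1, Srm and Sat1 between testosterone and 14 days of castration, of Odc1, Srm and Slc3a2 between 14 days and sham, and of Odc1 and Slc3a2 between testosterone and sham held in all 31 settings. So did the call of Srm between 14 and 3 days. The number of the 5 genes called between 3 days and sham, 3 as reported, was 1 with no filter, 0 with each array centred on its median and 1 to 3 when 1 array was left out. Between 14 and 3 days, 2 as reported, it was 1 with no filter, 1 without the arrays of high Gapdh ratio and 1 to 2 when 1 array was left out. Between testosterone and sham, 2 as reported, it was 4 with array weights, 4 without sham replicate 1 and the arrays of high Gapdh ratio (added once the data had been seen) and 2 to 4 when 1 array was left out. The cause was not tested. The 14-day count against sham was 3 to 4 and the testosterone count against 14 days 3 when 1 array was left out. Each gene had 1 probe set, so a median over probe sets could not differ. No paired analysis was possible because each array was taken as 1 mouse and the labels name no pairs.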

Other observations

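The probe sets assigned both to a gene of the pathway and to a pseudogene cannot say which transcript they read. Of the 2 for Oaz1 and Oaz1-ps, antizyme 1 and its pseudogene, 101013_at measured 8714 ± 597 (SD, n = 5) in sham, 7978 ± 428 at 3 days of castration, 8371 ± 877 at 14 days and 10298 ± 483 with testosterone. It was higher with testosterone than at 14 days (log2 change 0.30, limma adjusted p = 0.00516) and than in sham (0.24, adjusted p = 0.0187), with no overlap of arrays in either. The other, 161360_at, was above 190.8 on 0 arrays and was not tested. The 2 for Sms and Sms-ps, spermine synthase and its pseudogene, were both lower with testosterone than in sham, with no overlap of arrays. The changes were -0.83 for 160630_at (limma adjusted p = 1.04e-05) and -0.97 for 98136_at (limma adjusted p = 3.93e-05). In other comparisons they did not move alike. 160630_at measured 433 ± 49.3 in sham, 387 ± 49.7 at 3 days, 368 ± 37.7 at 14 days and 238 ± 38.3 with testosterone, a fall of -0.61 from 14 days (limma adjusted p = 0.000281). 98136_at measured 980 ± 241, 875 ± 142, 515 ± 69.5 and 485 ± 51.4, a fall of -0.89 from sham to 14 days (limma adjusted p = 8.19e-05), while its difference between testosterone and 14 days was -0.08 (adjusted p = 0.696).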
